A study of Mus musculus with 12 samples.

Results

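Pou4f1, Pou4f2, Pou3f1, Pitx1, Prrxl1, Isl1, Onecut1, Onecut2 and Tlx3 encode homeodomain and POU transcription factors best known from neurons. These 9 genes were taken by symbol from the 29641 genes listed in the cochlear or vestibular tables. They were thus chosen by the CPM of these libraries in the mutant against heterozygote comparison of each organ, and their genotype contrasts are given as a description that supports nothing further. Where one of them is said to be called, that says which side of the threshold it lay on in the fit across all genes, and is no independent test. The cochlear tables analysed here list 8 of the 9, without Tlx3, and the vestibular tables list 8, without Onecut1.

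Mutant mice were Gfi1Cre/Cre;RiboTagHA/HA, with Cre on both copies of Gfi1, and the heterozygotes they were set against were Gfi1Cre/+;RiboTagHA/HA, with Cre on 1 copy. Gfi1 encodes a zinc finger repressor that hair cells need to survive, and in RiboTag mice Cre switches on a ribosomal protein with an HA tag in the cells that carry it. Ribosome-bound RNA was pulled down with an antibody to HA from cochlea, the organ of hearing, and vestibule, the organ of balance, at postnatal day 0 to 1. Each genotype and organ had 3 libraries, 12 in all, described as independent biological replicates. The tag marks whichever cells have used the Gfi1 promoter, and hair cells are enriched rather than pure. Since mutants also carry more Cre, its dose and the loss of intact Gfi1 copies cannot be told apart. Cochlear libraries were made with a NuGEN Ovation Ultralow kit and vestibular libraries with a NEBNext Ultra Directional kit, so that organ and kit cannot be told apart and no level is compared between organs. In such bulk RNA, fewer cells of a type and less RNA per cell cannot be told apart either.

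A homeodomain is a short helical fold that reads AT-rich DNA, and POU factors join it to a second DNA-binding domain. Pou4f1 and Pou4f2 (Brn3a and Brn3b) act in somatosensory, inner ear and retinal ganglion neurons, and Pou3f1 (Oct6) in neural progenitors and in Schwann cells at the onset of myelination. Pitx1 and Prrxl1 are paired-like factors, Pitx1 of pituitary and hind limb and Prrxl1 (Drg11) of pain-sensing dorsal root and trigeminal neurons. The LIM homeodomain factor Isl1 is made by both neurons and hair cells of the embryonic ear. Onecut1 and Onecut2 join a CUT domain to the homeodomain and act in liver, pancreas, retina and motor neurons, and Tlx3 sets the glutamatergic fate of dorsal horn and cranial sensory neurons.

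Values are CPM, the reads of a gene scaled to its library's total. Cochlear libraries held 7531518 to 9363796 reads, each worth 0.107 to 0.133 CPM, and vestibular libraries 18951026 to 29370267, each worth 0.0340 to 0.0528 CPM. A count of 0 allows up to 3 reads, which is 0.320 to 0.398 CPM in cochlear and 0.102 to 0.158 CPM in vestibular libraries. These limits cover counting error only. As a check of the labels, Gfi1 averaged 69.5 ± 5.43 CPM in mutant and 133 ± 30.1 CPM in heterozygous cochleae (SD, n = 3 each; limma adjusted p = 0.00355), and 214 ± 19.8 CPM in mutant and 489 ± 42.2 CPM in heterozygous vestibules (adjusted p = 0.00234). Reads assigned to Gfi1 were thus lower in mutants but still present in each mutant library, the lowest being 64.3 CPM among mutant cochleae and 198 CPM among mutant vestibules. The vestibular replicate 1 libraries stood apart on the first principal component (−51.7 in the mutant and −29.2 in the heterozygote, against 4.96 to 36.0 in the other 4 libraries), and the cochlear replicate 3 libraries held fewer mitochondrial reads (27152 CPM in the mutant and 33207 CPM in the heterozygote, against 58562 to 78544 CPM in the other 4). Genotype changes of those of the 9 genes that were fitted are therefore also given without these pairs of libraries.

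RefSeq start-site windows on GRCm38.p6, 250 bases before an annotated start of transcription, were found for 6 of the 9 genes. Pou3f1, Pitx1 and Onecut2 had no entry. All 250 bases of the Prrxl1 window lay inside the RefSeq gene, 116 of them in annotated exons. That window is therefore not sequence upstream of the gene. Those of Pou4f1 and Pou4f2 are shown because these closely related genes were called in different organs, and that of Isl1 because it was the most abundant of the 9 and the only shown window with the core letters AATC of the GFI1 recognition sequence. Each is printed 5′ to 3′ on the minus strand, the coding strand of all 3 genes, without annotated exon bases. The stretches are chr14:104468119-104468249 (Pou4f1), chr8:78436648-78436897 (Pou4f2) and chr13:116309690-116309938 (Isl1). That of Pou4f1 was shortened to 131 bases, since the 119 bases of its window nearest the start lie inside the RefSeq gene. Capitals mark AATC and the E-box CAGCTG.
Pou4f1: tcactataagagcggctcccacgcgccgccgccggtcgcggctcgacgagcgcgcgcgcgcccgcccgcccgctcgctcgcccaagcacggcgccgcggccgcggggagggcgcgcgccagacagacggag
Pou4f2: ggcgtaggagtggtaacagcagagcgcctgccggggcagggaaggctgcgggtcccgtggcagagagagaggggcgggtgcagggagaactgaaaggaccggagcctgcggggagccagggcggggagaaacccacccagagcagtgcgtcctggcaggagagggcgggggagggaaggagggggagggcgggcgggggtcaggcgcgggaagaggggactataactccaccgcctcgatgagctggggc
Isl1: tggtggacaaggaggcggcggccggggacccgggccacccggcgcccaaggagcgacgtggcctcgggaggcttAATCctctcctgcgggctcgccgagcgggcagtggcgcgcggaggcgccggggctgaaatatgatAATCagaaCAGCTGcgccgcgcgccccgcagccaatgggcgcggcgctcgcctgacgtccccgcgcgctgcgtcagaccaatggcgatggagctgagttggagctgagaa
On either strand, AATC occurred 176 and 111 bases before the Isl1 start and the E-box 103 bases before it. Among the 6 windows AATC was also found for Onecut1, 37 bases before its start. The E-box was also found for Pou4f1, 118 bases before the start that defines its window. That E-box lay outside the printed stretch, among the 119 bases inside the RefSeq gene. AATC was present in 69.0% of 32851 RefSeq windows of this length and CAGCTG in 13.0%. The longer GFI1 site AATCACNGC (0.776% of windows) and the homeodomain core TAATTA (4.84% of windows) were in none of the 6. These matches describe letters only.

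In the cochlea 7 of the 9 genes reached 1 CPM in at least 3 of the 6 libraries and entered the fit across all genes, and in the vestibule 5 of 9. Pou3f1, Pitx1 and Prrxl1 passed in the cochlea only through the 3 mutant libraries. Pou4f2 and Prrxl1 passed in the vestibule through the 3 mutant libraries as well, with heterozygous replicate 2 the only other library at 1 CPM or more. In mutant cochleae Pitx1, Pou3f1, Prrxl1 and Pou4f1 were higher past an adjusted p of 0.05, 4 genes, where 1.9% of all 17985 tested genes were called higher. In mutant vestibules the 2 genes past it were Pou4f2 and Prrxl1, both higher, where 2.41% of 15595 were. None of the 9 was called lower in either organ with all libraries and no block for the replicate number, where 2.52% of all cochlear and 1.09% of all vestibular genes were. The choice of genes fixed these counts. Each fold change is a difference of log2(CPM + 1), and adding 1 shrinks it for genes at a few CPM or less.

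**Figure D1:**
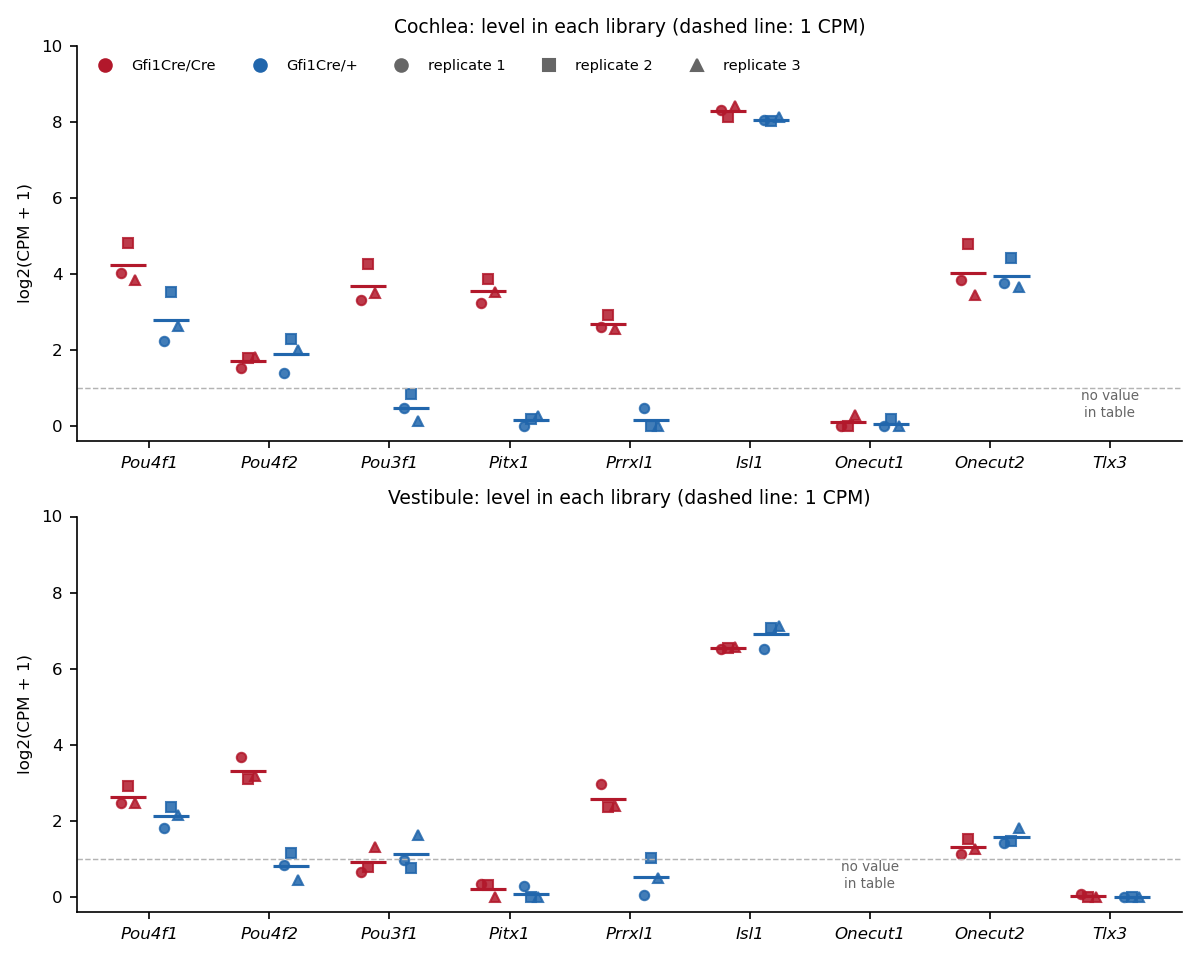
Level of each gene in each library as log2(CPM + 1), cochlea above and vestibule below, with Gfi1Cre/Cre in red left of Gfi1Cre/+ in blue, marker shape for the replicate number and a bar for the mean of 3 libraries. In the cochlea the red and blue points are far apart for Pou3f1, Pitx1 and Prrxl1, whose heterozygous libraries all lie under the dashed line at 1 CPM. In the vestibule they are far apart for Pou4f2 and Prrxl1.

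The POU4 genes took different patterns in the organs. Pou4f1 (chromosome 14, 104461676 to 104467999 on GRCm38, minus strand), a survival and subtype factor of sensory neurons, had 15.2, 27.2 and 13.2 CPM in the 3 mutant cochlear libraries, against 3.68, 10.5 and 5.23 CPM in the heterozygous ones. All mutant libraries lay above all heterozygous ones, and replicate 2 was the highest in each genotype. Its log2 fold change was 1.43 (limma SE 0.33). The gene was no longer called by edgeR on the recovered reads, with no filter on low values, or without heterozygous replicate 1 (1.14), mutant replicate 1 (1.53) or mutant replicate 2 (1.13). Pou4f1 had 4.59, 6.63 and 4.55 CPM in the mutant vestibular libraries, against 2.54, 4.19 and 3.47 CPM in the heterozygous ones. There the groups did not overlap but lay close, with a log2 fold change of 0.51 (SE 0.25) that was not called. The mutant libraries lay above the heterozygous ones for 9.74% of all tested genes in the cochlea and 10.7% in the vestibule.

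Pou4f2 (chromosome 8, 78433010 to 78436645, minus strand), known above all from retinal ganglion cells, stood at 1.87, 2.45 and 2.55 CPM in mutant cochleae, against 1.65, 3.85 and 2.99 CPM in heterozygous cochleae. These groups overlapped, with a log2 fold change of −0.18 (SE 0.28). The mutant vestibular libraries held 11.8, 7.64 and 8.03 CPM, against 0.804, 1.22 and 0.375 CPM in the heterozygous ones. The lowest mutant library lay far above the highest heterozygous one, and the log2 fold change was 2.50 (SE 0.28). Pooled over libraries, 599 mutant and 58 heterozygous reads gave a depth-adjusted ratio of 11.7 (95% exact interval 8.90 to 15.6, counting error only). Without both replicate 1 libraries, where the mutant value was highest, the log2 fold change was 2.34 (SE 0.31). Pou4f1 and Pou4f2 shared 0.498% and 0.729% of their exonic 50-base words with each other, so that few reads could be assigned to the wrong gene of the pair.

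Set against exon length, the balance within the pair moved in opposite ways. Pou4f1 made up 84.8%, 88.4% and 78.0% of the summed CPM per kb of both genes in mutant cochleae, against 60.5%, 65.1% and 54.5% in heterozygous cochleae. In mutant vestibules it made up 21.1%, 37.3% and 28.0%, against 68.5%, 70.3% and 86.4% in heterozygous vestibules. In neither organ did the genotypes overlap. The share is built from the contrasts on which both genes were chosen, so it too is a description. It was not computed for other pairs of genes.

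**Figure D2:**
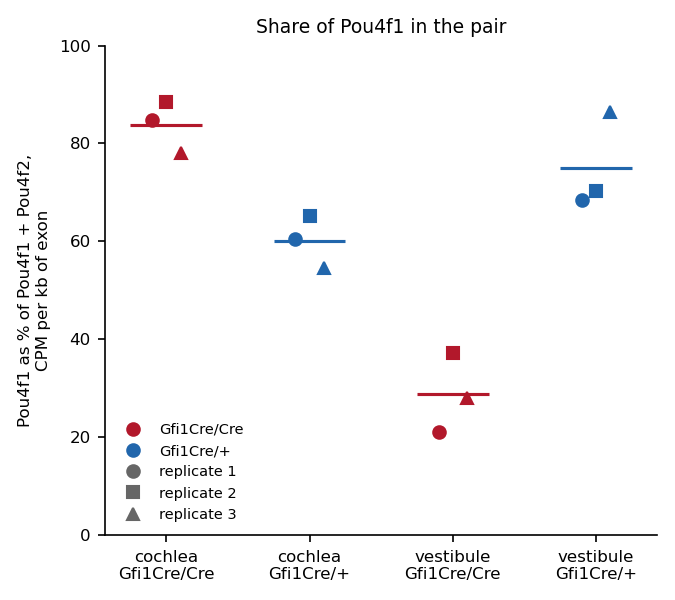
Pou4f1 as a percentage of the summed CPM per kb of exon of Pou4f1 and Pou4f2, by organ and genotype, with a point for each library and a bar for the mean of 3. The share lies between 78.0% and 88.4% in mutant cochleae and between 54.5% and 65.1% in heterozygous cochleae, and between 21.1% and 37.3% in mutant vestibules and between 68.5% and 86.4% in heterozygous vestibules.

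Pou3f1 (chromosome 4, 124656807 to 124660655, plus strand), the POU3 gene of the group, was near the limit of detection in heterozygous cochleae. It had 8.87, 18.1 and 10.3 CPM in mutant cochleae, against 0.381, 0.797 and 0.107 CPM in heterozygous cochleae. The groups lay far apart, with replicate 2 highest in each. The 300 mutant and 10 heterozygous reads gave a pooled ratio of 30.5 (95% exact interval 16.3 to 64.2), and the log2 fold change was 3.20 (SE 0.31). In the vestibule the gene stayed under the filter, at 0.580, 0.722 and 1.47 CPM in mutants, against 0.982, 0.713 and 2.11 CPM in heterozygotes. Those groups overlapped, and replicate 3 was highest in both. An unstranded count could take reads of Gm2164 as Pou3f1, since 8.57% of its exon bases lie under that gene on the opposite strand.

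Both paired-like genes were almost silent in heterozygous cochleae. Pitx1 (chromosome 13, 55825051 to 55836192, minus strand) had 8.50, 13.7 and 10.4 CPM in mutant cochleae, against 0, 0.133 and 0.214 CPM in heterozygous cochleae. The heterozygous libraries held 3 reads in all and the mutant libraries 264, a pooled ratio of 89.4 (95% exact interval 30.3 to 436), and the log2 fold change was 3.39 (SE 0.26). In the vestibule no library reached 1 CPM: mutants held 0.264, 0.255 and 0 CPM, against 0.223, 0 and 0 CPM in heterozygotes. That is 11 mutant and 5 heterozygous reads, with a ratio whose interval of 0.796 to 9.13 spans equality. Predicted genes share 4.07% of the exon bases of Pitx1 on the same strand and 6.21% on the opposite strand.

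Prrxl1 (chromosome 14, 32599407 to 32649246, plus strand) was called higher in both organs. In mutant cochleae it had 5.12, 6.58 and 4.86 CPM, against 0.381, 0 and 0 CPM in heterozygous cochleae. With 134 mutant and 3 heterozygous reads the pooled ratio was 45.4 (95% exact interval 15.2 to 223), and the log2 fold change was 2.54 (SE 0.26). Mutant vestibules held 6.86, 4.20 and 4.22 CPM of this nociceptor factor, against 0.0446, 1.05 and 0.409 CPM in heterozygous vestibules. The groups did not overlap, but the heterozygous libraries ranged widely around 38 reads in all, against 332 in mutants, and the pooled ratio was 9.87 (95% exact interval 7.04 to 14.2). The vestibular log2 fold change of 2.05 (SE 0.32) was 1.62 (SE 0.30) without both replicate 1 libraries. It was not called by edgeR on the recovered reads or without heterozygous replicate 3 (2.03, SE 0.38). Leaving out both cochlear replicate 3 libraries moved the cochlear values little, to 3.12 for Pou3f1, 3.47 for Pitx1, 2.54 for Prrxl1 and 1.55 for Pou4f1. The uncalled cochlear values without that pair were −0.19 for Pou4f2, 0.18 for Isl1 and 0.23 (SE 0.29) for Onecut2, and the uncalled vestibular values without both replicate 1 libraries were 0.43 for Pou4f1 and −0.27 for Onecut2.

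Isl1 (chromosome 13, 116298281 to 116309689, minus strand) was by far the most abundant of the 9 per kb of exon in every group. It had 313, 276 and 337 CPM in mutant cochleae, against 261, 257 and 275 CPM in heterozygous cochleae. The lowest mutant library lay just above the highest heterozygous one, and the log2 fold change of 0.22 (SE 0.12) was not called. In the vestibule Isl1 had 89.9, 91.6 and 93.6 CPM in mutants, against 90.0, 135 and 137 CPM in heterozygotes. Heterozygous replicate 1 lay among the mutants and the other 2 above them, so that the groups overlapped, with a log2 fold change of −0.37 (SE 0.17) that was not called. With the replicate number as a block the same change had an SE of 0.11 and was called lower, where 12.8% of all genes were called lower under the block. It was also called lower without heterozygous replicate 1 (−0.56) and without both replicate 1 libraries (−0.55, SE 0.09).

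The ONECUT genes and Tlx3 showed no change past the spread between libraries. Onecut2 (chromosome 18, 64340020 to 64400987, plus strand), a factor of retina and motor neurons, had 13.4, 26.6 and 9.96 CPM in mutant cochleae, against 12.4, 20.4 and 11.6 CPM in heterozygous cochleae. Replicate 2 was the highest in each genotype, the groups overlapped, and the log2 fold change was 0.08 (SE 0.31). In the vestibule it had 1.21, 1.87 and 1.39 CPM in mutants, against 1.70, 1.80 and 2.55 CPM in heterozygotes (−0.27, SE 0.25), again with overlap. Onecut1 (chromosome 9, 74861921 to 74891781, plus strand) was below 1 CPM in every cochlear library, with 2 mutant reads and 1 heterozygous read. As 52.8% of its exon bases also belong to Gm20649 on the same strand, even these reads are uncertain. Tlx3 (chromosome 11, 33200752 to 33203589, minus strand) had 1 read in vestibular mutant replicate 1 and 0 in the other 5 vestibular libraries. At these counts no difference in Onecut1 or Tlx3 was detectable.

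The genotype change could be set side by side between organs for the 5 genes that entered both fits. The cochlear minus the vestibular log2 fold change was −2.68 (SE 0.40) for Pou4f2, 0.92 (SE 0.47) for Pou4f1, 0.58 (SE 0.21) for Isl1, 0.49 (SE 0.41) for Prrxl1 and 0.36 (SE 0.44) for Onecut2. These differences are built from the contrasts on which the genes were chosen, so they too are a description. Pou4f2 lay past an adjusted p of 0.05, as 3.14% of 14674 genes did, and nothing is read from this. Isl1 also lay past it without vestibular heterozygous replicate 1, without both vestibular replicate 1 libraries (0.77, SE 0.16) and with the replicate block, and Pou4f1 with the block, under which 13.3% of all genes did. The value of Prrxl1 was 0.92 (SE 0.39) without both vestibular replicate 1 libraries, and did not pass. Over 22 alternatives of processing and left-out libraries it ranged from 0.195 to 2.05, and that of Pou4f2 from −3.92 to −1.55. Pou3f1 and Pitx1, with the highest cochlear fold changes, fell under the vestibular filter, so that no difference between organs was estimated for them.

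**Figure D3:**
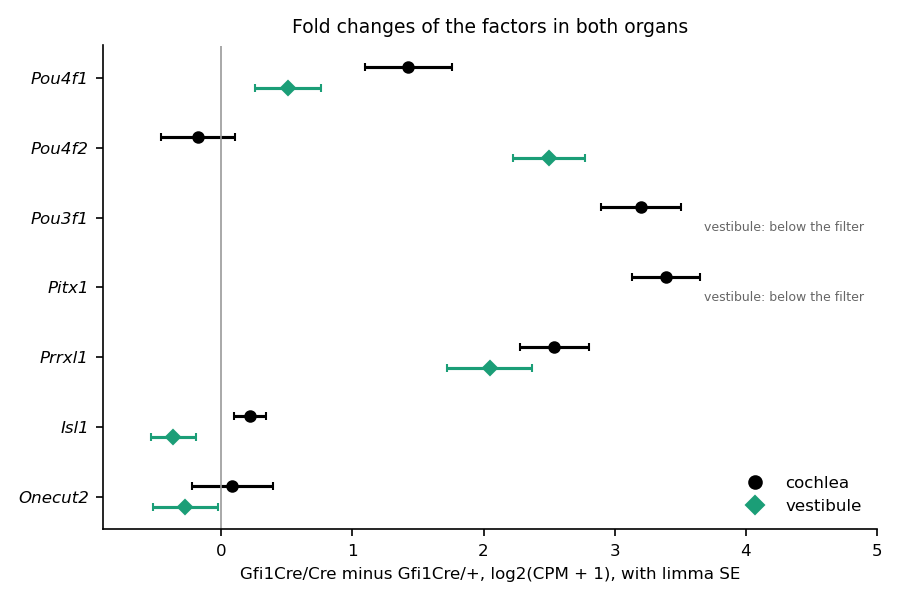
Log2 fold change on the log2(CPM + 1) scale, Gfi1Cre/Cre minus Gfi1Cre/+, for the 7 genes that entered a fit, with the cochlea as black circles, the vestibule as green diamonds and bars for 1 limma SE. Pou4f2 lies at −0.18 in the cochlea and 2.50 in the vestibule, Pou4f1 at 1.43 and 0.51, and Prrxl1 at 2.54 and 2.05.

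Levels can be ordered between genes only per length of exon. In mutant cochleae Isl1 (77.9 ± 7.74 CPM per kb, SD, n = 3) was followed by Pitx1 (4.09 ± 0.986), Pou4f1 (3.97 ± 1.62) and Pou3f1 (3.23 ± 1.29), which lay within an SD of each other, and then by Prrxl1 (1.32 ± 0.222), Onecut2 (1.02 ± 0.541) and Pou4f2 (0.715 ± 0.114). In heterozygous cochleae the order per kb was Isl1 (66.8 ± 2.44), Pou4f1 (1.38 ± 0.763), Onecut2 (0.914 ± 0.300) and Pou4f2 (0.883 ± 0.346), the last 3 within an SD of each other, with Pou3f1 (0.111 ± 0.0902), Pitx1 (0.0435 ± 0.0406) and Prrxl1 (0.0305 ± 0.0527) at the end. Pitx1 and Pou3f1, near the end of the heterozygous order, thus stood beside Pou4f1 in mutants. In mutant vestibules the order per kb was Isl1 (23.2 ± 0.462), Pou4f2 (2.85 ± 0.711), Prrxl1 (1.22 ± 0.367) and Pou4f1 (1.12 ± 0.254), of which the last 2 lay within an SD. In heterozygous vestibules it was Isl1 (30.5 ± 6.69), Pou4f1 (0.729 ± 0.177), Pou3f1 (0.330 ± 0.193), Pou4f2 (0.249 ± 0.131), Onecut2 (0.124 ± 0.0288) and Prrxl1 (0.120 ± 0.122), where Pou3f1 and Pou4f2, and Onecut2 and Prrxl1, lay within an SD.

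The highest mutant library differed between genes. In the cochlea it was replicate 2 for Pou4f1, Pou3f1, Pitx1, Prrxl1 and Onecut2, and replicate 3 for Pou4f2 and Isl1. In the vestibule it was replicate 1 for Pou4f2 and Prrxl1, replicate 2 for Pou4f1 and Onecut2, and replicate 3 for Isl1. Among 13416 other genes tested in both organs, those most like the mean standardized profile of the 5 genes over the 12 libraries, with organ means removed, were Pnma3 (Pearson r 0.942), Mapk11 (0.937), Sh3gl3 (0.925), Ppl (0.920) and Gjd2 (0.917). For Prrxl1 alone, a profile chosen after its values were seen, they were St18 (0.983), Gfy (0.983), Akap5 (0.977), Adarb2 (0.976) and Dnajc6 (0.970). These values describe libraries that share a genotype contrast, and the genes were picked for likeness.

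Few other homeodomain genes were called without the replicate block. The 113 further genes were POU, LIM, paired-like, CUT, NK-like, sine oculis and TALE genes, LIM cofactors and Pou2af1, a coactivator gene without a homeodomain. Of these, 60 were tested in the cochlea with 2 called higher and 2 lower by limma. That is 6.67% beside 4.41% of all genes, with a median log2 fold change of 0.12 beside 0.05. In the vestibule 64 were tested with 2 higher and 0 lower, 3.13% beside 3.5%, and a median of −0.06, the same as that of all genes. Under the block 7 were called in the cochlea (11.7%, beside 8.52% of all genes) and 29 in the vestibule, 17 higher and 12 lower (45.3%, beside 23.3% of all genes). The called LIM gene of the cochlea was Lhx2, a factor of olfactory neurons and forebrain (6.03, SE 0.34), and that of the vestibule Lhx4, a motor neuron and pituitary factor. Lhx4 averaged 7.35 ± 2.90 CPM in mutant and 1.30 ± 0.232 CPM in heterozygous vestibules (1.81, SE 0.28, limma adjusted p = 0.0121), a call lost without heterozygous replicate 2 (adjusted p = 0.0651) or with no filter on low values (0.0558). Six3, a forebrain and eye factor, averaged 13.6 ± 9.13 CPM in mutant and 0.547 ± 0.293 CPM in heterozygous cochleae (3.09, SE 0.36, limma adjusted p = 0.000172). Lhx2 and Six3 passed the cochlear filter only through the 3 mutant libraries, as all heterozygous values of both lay below 1 CPM. Pax2, a paired-domain factor of the otic placode and cochlea, fell to 22.2 ± 2.79 CPM in mutant cochleae, against 47.0 ± 17.3 CPM in heterozygous cochleae (limma adjusted p = 0.0156), a call lost without heterozygous replicate 2 or mutant replicate 1 (adjusted p = 0.0582 and 0.0533). The Iroquois gene Irx2 also fell in the cochlea (−0.88, SE 0.18, adjusted p = 0.00926; 0.0550 without mutant replicate 2). In the vestibule Barhl2, of the BARH class, was called higher (1.96, SE 0.42, adjusted p = 0.0442), and leaving out any of the 3 mutant libraries or heterozygous replicate 2 or 3, no filter on low values, or a pseudocount of 4 CPM ended that call (adjusted p = 0.0661 to 0.150). Barhl2 had 1.03, 0.671 and 0.238 CPM in the heterozygous vestibular libraries, so it too passed the filter through the mutant ones.

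By family, none of the 10 genes of the POU list tested in the cochlea and none of the 9 in the vestibule was called by limma. That list includes the coactivator gene Pou2af1, which is not itself a POU gene. The 4 CUT genes tested in each organ gave no call. The LIM list had 1 of 12 called higher in each organ, the paired-like list 1 of 7 called lower in the cochlea and 0 of 5 in the vestibule, the NK-like list 0 of 6 and 1 of 14, and the sine oculis and TALE list 2 of 21 in the cochlea, a gene each way, and 0 of 20 in the vestibule. Under the replicate block the vestibular calls were 2 higher and 3 lower for the POU list, with Pou2af1 among the lower ones, and 1 higher for CUT. They were 4 higher and 2 lower for LIM, 1 higher and 3 lower for paired-like and 4 higher and 1 lower for NK-like genes. Sine oculis and TALE genes had 5 higher and 3 lower. In the cochlea the block added 1 lower call each to the POU, NK-like and sine oculis and TALE lists, that of the POU list being Pou2af1.

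Genes of sensory neuron differentiation, 30 receptors, channels, peptides and factors of dorsal root, trigeminal and ear ganglia, had 16 members tested in each organ. In the cochlea 4 were called higher and 0 lower, and in the vestibule 4 higher and 2 lower. Of all tested genes, 1.9% were called higher and 2.52% lower in the cochlea, and 2.41% and 1.09% in the vestibule. Both organs shared Gfra1, a GDNF co-receptor (2.16, SE 0.14, in the cochlea and 1.72, SE 0.21, in the vestibule), and P2rx3, an ATP-gated channel of sensory neurons (1.11, SE 0.23, and 2.22, SE 0.15). P2rx3 averaged 144 ± 19.8 CPM in mutant and 30.1 ± 2.60 CPM in heterozygous vestibules. Among the cochlear calls was also Stmn2, a microtubule regulator of growth cones (2.13, SE 0.29). The vestibule added Scn11a, a sodium channel of pain fibres (1.68, SE 0.17), and Calca, which encodes the peptide CGRP (0.97, SE 0.18). The Calca call was lost under 6 of 17 alternatives, with no filter on low values or without any 1 mutant library or heterozygous replicate 2 or 3 (adjusted p up to 0.129). The 2 genes that fell in the vestibule, named after their values were seen, were the receptor genes Ret (−1.24, SE 0.24) and Ntrk2 (−0.95, SE 0.20). The Ret call was lost under 6 of 16 alternatives, the same as for Calca (adjusted p up to 0.145). That of Ntrk2 was lost under 10 of 17, which included edgeR, both rescalings, the pair of replicate 1 libraries left out and each single library left out except heterozygous replicate 3 (adjusted p up to 0.188). The cochlear P2rx3 call was lost without heterozygous replicate 1 or mutant replicate 2 (adjusted p = 0.0599 and 0.0732). The median log2 fold change of the list was 0.19 in the cochlea and −0.06 in the vestibule. Over these and the homeodomain lists, 142 genes in all, the replicate block raised the calls to 13 in the cochlea, against 8 without it, and to 37 in the vestibular fit, against 8.

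**Figure D4:**
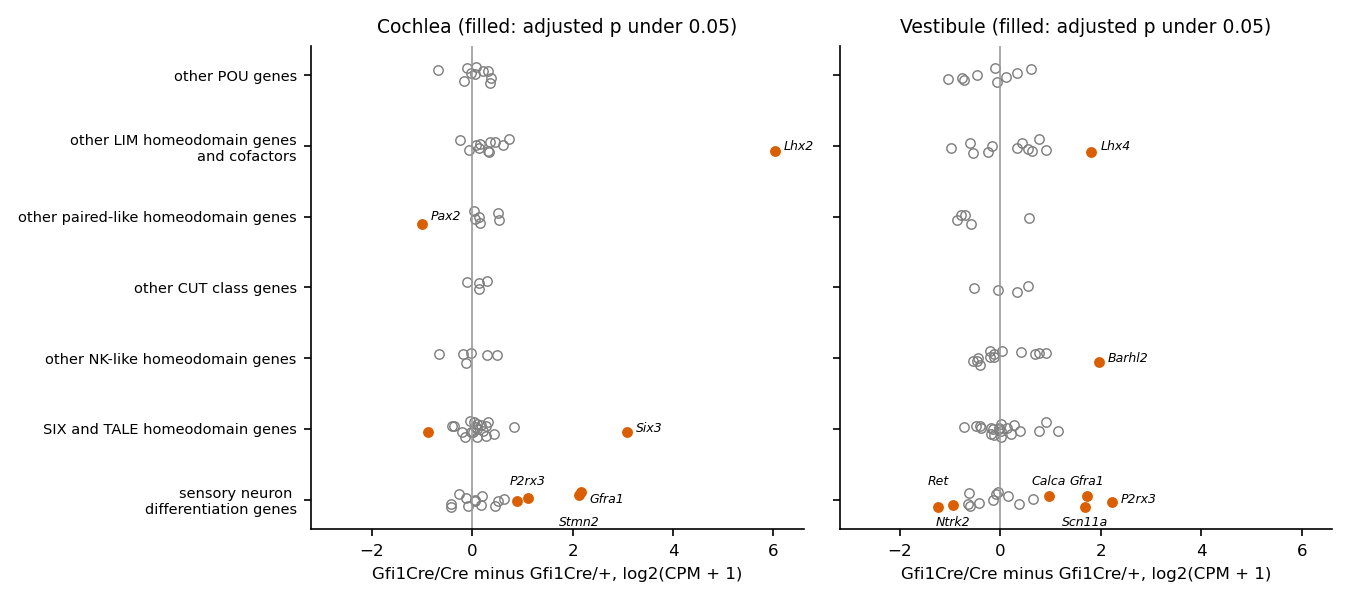
Log2 fold change, Gfi1Cre/Cre minus Gfi1Cre/+, of each tested gene in the 6 other homeodomain and POU lists and the sensory neuron list, cochlea left and vestibule right; filled points passed a limma adjusted p of 0.05, and those with the larger changes are named. Most open points lie within 1 of the zero line, and the sensory neuron row holds the most filled points in each organ.

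Some markers of other cell types moved between the genotypes as well. Beside the counts below, 1.9% of all tested genes were called higher and 2.52% lower in the cochlea without the block. In the vestibule 2.41% were called higher and 1.09% lower. Under the block 8.52% of all genes were called in the cochlea and 23.3% in the vestibule. The 18 ganglion neuron markers summed to 2122 to 2257 CPM in mutant and 1387 to 1512 CPM in heterozygous cochleae, with 6 of 17 tested called higher and 1 lower, and to 2786 to 2845 CPM in mutant and 1586 to 1806 CPM in heterozygous vestibules, with 4 of 14 higher and 2 lower (8 higher and 2 lower under the block). Among them Slc17a6, a vesicular glutamate transporter, was called higher in both organs (3.14, SE 0.26, and 1.76, SE 0.18), Snap25, a synaptic fusion protein, likewise (0.75, SE 0.12, and 1.18, SE 0.15), while the synaptotagmin Syt1 fell in both (−0.64, SE 0.16, and −1.15, SE 0.17). The cochlear Syt1 call was lost under 8 of 17 alternatives, edgeR and both rescalings among them and heterozygous replicate 1 or 2 or mutant replicate 2 or 3 left out (adjusted p up to 0.193), and the vestibular one without heterozygous or mutant replicate 2 (adjusted p = 0.0673 and 0.0501). Eomes was at 0 in 2 mutant libraries and 1 heterozygous library of the cochlea and in 1 mutant library of the vestibule, and Thy1 in 1 vestibular mutant library. These sums move with Pou4f1, Pou3f1, Pitx1 and Prrxl1 in the cochlea and with Pou4f2 and Prrxl1 in the vestibule, and their part in those differences was not tested.

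Glial markers summed to 268 to 311 CPM in mutant and 237 to 325 CPM in heterozygous cochleae, with 0 of 12 called, and to 256 to 288 CPM in mutant and 404 to 465 CPM in heterozygous vestibules, with 1 of 11 called lower (7 lower under the block), and Gfap at 0 in 1 mutant library. Mesenchyme markers, the list nearest to the limb sites of Pitx1, summed to 1383 to 1487 CPM in mutant and 1324 to 1544 CPM in heterozygous cochleae with 0 of 12 called. In the vestibule they summed to 1093 to 1496 CPM in mutants and 1976 to 2599 CPM in heterozygotes with 2 of 12 called lower (9 under the block). Hair cell markers, the enriched cell type, summed to 3642 to 4351 CPM in mutant and 5598 to 6737 CPM in heterozygous cochleae, with 8 of 12 called lower (1 higher and 10 lower under the block), and to 10755 to 11424 CPM in mutant and 9823 to 10948 CPM in heterozygous vestibules, with 2 higher and 1 lower (5 higher and 1 lower under the block). This list holds Gfi1 itself, the disrupted gene. Gfi1 was the 1 lower call in the vestibule, with and without the block, and was among the 8 lower calls in the cochlea. Its fall is the check of the labels given above and says nothing further about hair cells. The vestibular mutant sum of the hair cell list was above that of the same-numbered heterozygote in each of the 3 pairs, while the ranges overlapped. Macrophage sums overlapped between the genotypes in both organs, at 2971 to 3658 CPM in mutant and 2445 to 3059 CPM in heterozygous cochleae. In the cochlea 2 of 13 were called higher (3 under the block), and 1 of the 2 calls was lost under 7 of 17 alternatives. In the vestibule 0 of 13 were called (3 lower under the block). Supporting cell sums overlapped in both organs with 0 of 15 called by limma (7 under the block in the vestibule). Over all genes, 1.9% were called higher and 2.52% lower in the cochlea without the block, and 2.41% and 1.09% in the vestibule. Under the block 8.52% of all cochlear genes were called, and 23.3% of all vestibular genes, 12.8% as lower.

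**Figure D5:**
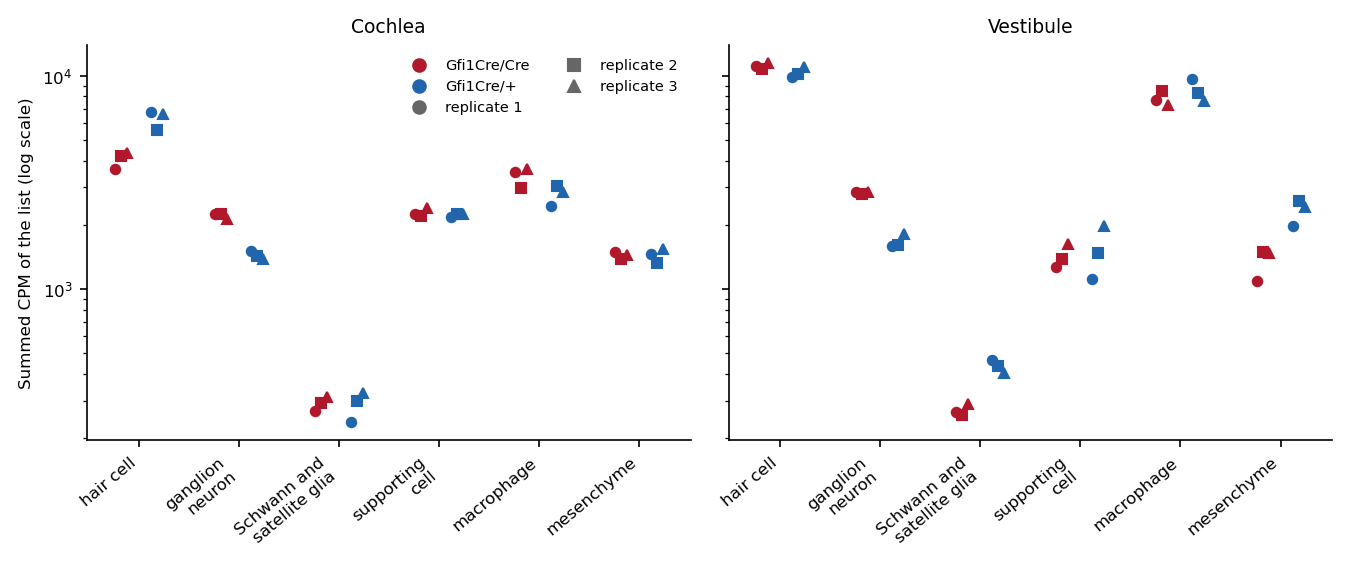
Summed CPM of 6 marker lists in each library on a log axis, cochlea left and vestibule right, with Gfi1Cre/Cre in red left of Gfi1Cre/+ in blue and marker shape for the replicate number. Ganglion neuron sums are higher in mutants in both organs, and hair cell sums are lower in mutant cochleae, at 3642 to 4351 CPM against 5598 to 6737 CPM.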

How the data were processed

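The deposited values are CPM, per the labels and the values, in 1 table per library. Per the submitters' processing notes TopHat and GRCm38 were used, versions unstated; the counter, its strand setting and the annotation are not given in the sources used here. Whole reads were recovered for 100% of values (tolerance 0.0001). Genes with at least 1 CPM in 3 of 6 libraries were fitted on log2(CPM + 1) with limma 3.58.1 (trend) in R 4.3.3, mutant minus heterozygote within organ, with calls at an adjusted p (Benjamini-Hochberg) below 0.05. A fit of all 12 libraries gave the difference between organs. edgeR 4.0.16 and DESeq2 1.42.0 on recovered reads were alternatives. In simulated data limma recovered 97% of 4-fold and 47% of 2-fold changes in the cochlea, and 99% and 54% in the vestibule. False calls were 7 and 9. The simulated counts had the same dispersion for every gene and no replicate structure, and the changed genes averaged at least 1 CPM. These rates are therefore no measure of power in the real libraries.

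Deviations of same-numbered mutant and heterozygous libraries correlated across genes (0.226, 0.226 and 0.420 in the cochlea; 0.766, 0.508 and 0.599 in the vestibule), so the numbers in the titles were taken as pairs and a replicate block was tried. The 9 genes and the 7 gene and 6 marker lists were chosen with earlier results of these data known. Named genes were the 9, up to 4 called genes per list and organ by smallest p, up to 3 per marker list and per list for the difference between organs, markers at 0, and the 5 most alike; some genes that this rule names are not reported here. Lengths and positions come from GENCODE M21. Figures used matplotlib 3.10.9.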

Additional observations from a re-analysis of the deposited data

Results flagged for a closer look

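Of 65 tested genes of the homeodomain and sensory neuron lists, 4 (6.15%) had a cochlear change that differed from the vestibular change. This was in a single limma fit of the 12 libraries, beside 3.14% of all 14674 genes. Under the replicate block 19 did (29.2%, beside 13.3%). Organ and kit cannot be told apart in this difference. Scn11a averaged 77.3 ± 11.0 CPM in mutant and 108 ± 34.3 CPM in heterozygous cochleae, and 34.6 ± 3.44 CPM in mutant and 10.1 ± 1.09 CPM in heterozygous vestibules (SD, n = 3 each), a difference of −2.11 (log2, SE 0.30, limma adjusted p = 0.000884). Pax2 averaged 22.2 ± 2.79 CPM in mutant and 47.0 ± 17.3 CPM in heterozygous cochleae, and 122 ± 27.4 CPM in mutant and 81.2 ± 15.7 CPM in heterozygous vestibules, a difference of −1.57 (SE 0.32, adjusted p = 0.0125). Both were called under each of 23 alternatives. Barhl1, a hair cell homeobox gene, averaged 17.3 ± 3.10 CPM in mutant and 27.8 ± 2.61 CPM in heterozygous cochleae, and 135 ± 50.6 CPM in mutant and 77.2 ± 21.2 CPM in heterozygous vestibules, a difference of −1.44 (SE 0.33, adjusted p = 0.0271), though limma called it in neither organ alone. Its call was lost without cochlear mutant replicate 1 or 3, cochlear heterozygous replicate 1 or 3, vestibular heterozygous replicate 2 or 3, or both cochlear replicate 3 libraries, with adjusted p up to 0.131. Stmn2 averaged 115 ± 52.8 CPM in mutant and 25.1 ± 9.67 CPM in heterozygous cochleae, and 1.95 ± 0.961 CPM in mutant and 2.18 ± 1.57 CPM in heterozygous vestibules, a difference of 2.17 (SE 0.55, adjusted p = 0.0456). That call was lost under 14 of 22 alternatives, with adjusted p up to 0.136.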

How the results depend on the processing

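No result reversed its direction while called. The replicate block raised the genes called to 1532 in the cochlea (794 without it), 3634 in the vestibule (546) and 1955 for the difference between organs (461), and those of the 142 context genes to 13, 37 and 19, against 8, 8 and 4; edgeR with the block gave 1397 cochlear genes, 3340 vestibular genes and 38 vestibular context genes. DESeq2 gave 1234 vestibular genes with 20 context genes, and 815 and 9 for the difference. No filter on low values left 358 vestibular genes and 3 context genes. Leaving out both vestibular replicate 1 libraries gave 863 and 17, and both cochlear replicate 3 libraries 280 and 2 for the difference, whose context calls were 8 with TMM and 7 with median-of-ratios rescaling. Of the vestibular calls among the 9 genes, edgeR kept 1 (Pou4f2) and a filter of 5 CPM also 1. Leaving out each replicate in turn gave 546 to 801 cochlear genes (context 7 to 9), 226 to 522 vestibular genes (context 3 to 11; 1 to 2 of the 9 genes) and 302 to 453 for the difference (context 2 to 5); the cause was not tested. The lowest vestibular count, 226, was without heterozygous replicate 2, and the counts without heterozygous replicate 3, mutant replicate 2 or mutant replicate 3 were 293, 254 and 253. The log2 fold changes of Pitx1, Pou3f1 and Prrxl1 in the cochlea ranged over 1.84 to 6.46, 1.85 to 4.88 and 1.20 to 5.46, and those of Pou4f2 and Prrxl1 in the vestibule over 1.44 to 3.60 and 1.01 to 3.50, lowest with a pseudocount of 4 CPM. Onecut1, Tlx3 and vestibular Pitx1 had so few reads that no difference between the genotypes could be resolved.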
